A study of Mus musculus with 9 samples.

Results

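The genes described are 10 of the 31685 genes of the expression table, listed by name as the contractile machinery of intestinal smooth muscle and matched to the table by Ensembl identifier. They are Acta2, Actg2, Myh11, Mylk, Lmod1, Cnn1, Smtn, Tagln, Des and Synpo2. The list was set by name and not by a cutoff on measured values. Earlier results of these data were known when it was made. All 10 were found, and all 10 passed the filter on low values, as did 13056 genes in the whole table. The study asked how mouse jejunum recovers from abdominal irradiation and whether intravenous immunoglobulin (IVIg), a preparation of pooled human IgG, changes that recovery. RNA-seq was performed on the jejunum of wild-type C57BL/6J mice, which the study's methods give as males aged 6 to 8 weeks. The 3 control mice had no treatment. The 3 TAI mice received a single X-ray dose of 12 Gy to the abdomen, at 75 cGy/min, and the methods add PBS as the vehicle. The 3 TAI/IVIg mice received the same 12 Gy and then 500 mg/kg IVIg into a vein within 1 h, with injections repeated every 3 days. Tissue was taken on day 3 after irradiation, and the labels put all 9 mice in the same batch. No group received IVIg without irradiation.

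Levels are given as FPKM, the fragments of a gene scaled by its exon length and by the library size, and differences as log2 fold changes of FPKM + 1. Library totals lay between 16284531 and 18244739 reads. The labels call the tissue jejunal epithelium, whereas the methods describe jejunal tissue, and genes of the muscle wall were present in every mouse: the lowest Acta2 level was 44.2 FPKM. Epithelial genes were also at a high level, with the summed FPKM of 13 epithelial markers between 6837 and 8652 in control, 8081 and 8942 in TAI mice, and 7779 and 10328 in TAI/IVIg mice. In such mixed tissue, fewer muscle cells and less RNA per muscle cell cannot be told apart. TAI/IVIg mouse 3 stood apart from the other 8 mice. Its median level over the 10 contractile genes was 0.228 times the control mean, against 0.604 in TAI/IVIg mouse 2 and 1.06 in TAI/IVIg mouse 1. The members' estimates for TAI/IVIg against control, their medians and their correlations are given with and without it.

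Intestinal smooth muscle shortens when myosin pulls on actin filaments. Calcium that enters the cell binds calmodulin, which activates myosin light chain kinase, and the phosphorylated myosin then walks along actin. Proteins bound to the thin filament set its length and its access to myosin, while desmin filaments and dense bodies carry the force to the cell membrane. The outer and inner layers of this muscle drive peristalsis, and thin strands of it also run along the muscularis mucosae and into the villus core.

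Acta2 and Actg2 encode the actins of smooth muscle, the former prominent in vessels and myofibroblasts as well as in the gut and the latter typical of visceral muscle. Acta2 (chromosome 19, 34241090 to 34255590, minus strand, GRCm38) was the most abundant of the 10 genes in every mouse. Its FPKM was 203, 193 and 266 in the control mice, 239, 208 and 304 in the TAI mice and 218, 111 and 44.2 in the TAI/IVIg mice. Actg2 (chromosome 6, 83512905 to 83536265, minus strand) measured 119.6, 151 and 158 FPKM in control, 158, 129 and 176 in TAI mice and 133, 77.4 and 24.7 in TAI/IVIg mice. For both actins the TAI mice overlapped the controls, and in the TAI/IVIg group mouse 1 lay within the range of control and TAI mice whereas mice 2 and 3 lay below every one of them. Against control the estimate of Acta2 in TAI/IVIg was −1.08 (SE 0.475, limma adjusted p = 0.0897) and that of Actg2 was −1.15 (SE 0.493, limma adjusted p = 0.0850), so neither passed the threshold of 0.05. Both depended on single mice. The estimates without TAI/IVIg mouse 3 were −0.49 for Acta2 and −0.48 for Actg2, and with mouse 1 of that group left out they were −1.62 (limma adjusted p = 0.0118) and −1.67 (limma adjusted p = 0.0162), both then called.

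The proportion of the 2 actins overlapped between all groups. The ratio of Actg2 to Acta2 FPKM was 0.655 ± 0.108 in control, 0.620 ± 0.0422 in TAI mice and 0.621 ± 0.0684 in TAI/IVIg mice (SD, n = 3 each). A two-sided exact permutation test of the mean log2 ratio gave p = 0.8 for TAI against control, p = 0.7 for TAI/IVIg against control and p = 1 for TAI/IVIg against TAI, where 3 mice against 3 cannot go below 0.1. In TAI/IVIg mouse 3, with the lowest level of both actins, the ratio was 0.560, against 0.590 to 0.779 in the controls. The difference between TAI/IVIg and control was −0.07 on the log2 scale and changed sign when control mouse 2 or TAI/IVIg mouse 3 was left out.

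Serum response factor binds a 10-base element, the CArG box, that is found near many smooth muscle genes. Since the members varied together, the promoter windows of RefSeq (GRCm38.p6, 250 bases before to 50 after the gene start) were searched for it. A window was given for 7 members, and the names without a window are Myh11, Actg2 and Tagln. The windows of Mylk (chr16:34784700-34784999) and Smtn (chr11:3539243-3539542) lie inside the genes, which span 34745210 to 35002420 and 3517523 to 3540612. For both, a box near another start of the gene would be missed. None of the 7 held an exact CArG box, which 1.63% of 32851 windows held. Windows with the box or a run 1 base off it came to 2 of 7 members, Acta2 and Lmod1, against 21.1% of all windows. The box reads alike on both strands, so each site was counted once. TATAAA, on either strand, was in the window of Synpo2 alone among the 7 and in 13.6% of all windows. The windows of Acta2 and Lmod1 are shown, with the runs up to 1 base off the CArG box in capitals, beside that of Acta1, a striated muscle actin described further on, whose window held 1 exact box. The windows are chr19:34255324-34255623 (minus strand) for Acta2, chr1:135324563-135324862 (plus strand) for Lmod1 and chr8:123894726-123895025 (minus strand) for Acta1.
Acta2: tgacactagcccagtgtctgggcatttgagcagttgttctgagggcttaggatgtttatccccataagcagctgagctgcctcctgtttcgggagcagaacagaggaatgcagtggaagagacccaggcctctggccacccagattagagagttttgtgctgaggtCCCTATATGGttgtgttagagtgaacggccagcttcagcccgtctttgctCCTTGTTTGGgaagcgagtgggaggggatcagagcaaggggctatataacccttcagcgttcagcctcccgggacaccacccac
Lmod1: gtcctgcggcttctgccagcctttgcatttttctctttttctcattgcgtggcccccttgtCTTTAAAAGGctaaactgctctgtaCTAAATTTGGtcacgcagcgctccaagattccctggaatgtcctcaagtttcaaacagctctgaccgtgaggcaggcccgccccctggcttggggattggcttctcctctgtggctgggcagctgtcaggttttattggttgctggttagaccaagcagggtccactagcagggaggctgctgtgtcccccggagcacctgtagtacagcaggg
Acta1: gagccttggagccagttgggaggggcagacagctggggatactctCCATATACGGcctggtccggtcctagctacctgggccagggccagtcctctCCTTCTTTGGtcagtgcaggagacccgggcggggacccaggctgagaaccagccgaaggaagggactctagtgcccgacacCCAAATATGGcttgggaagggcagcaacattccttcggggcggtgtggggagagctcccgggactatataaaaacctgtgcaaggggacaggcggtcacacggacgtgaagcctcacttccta
In Acta2 these runs began 84 and 34 bases before the gene start, and in Lmod1 they began 189 and 164 bases before it.

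Myh11 (chromosome 16, 14194535 to 14291372, minus strand) encodes the heavy chain of smooth muscle myosin, the motor itself. It measured 61.6, 60.7 and 71.3 FPKM in control, 97.2, 85.0 and 134 in TAI mice and 79.5, 41.6 and 10.99 in TAI/IVIg mice. All TAI mice lay above all controls, and all TAI/IVIg mice lay below all TAI mice. The TAI mean was 1.63 times the control mean, with an estimate of 0.68 (95% interval −0.60 to 1.96, limma adjusted p = 0.373). Against control the TAI/IVIg estimate of Myh11 was −0.92 (limma adjusted p = 0.202), −0.16 without TAI/IVIg mouse 3 and, leaving out mouse 1 of that group instead, −1.53 (limma adjusted p = 0.0325). The spread within the TAI/IVIg group, 44.0 ± 34.3 FPKM (SD, n = 3), enters the shared error of this fit. With only the 6 control and TAI mice in the fit, the same difference had an adjusted p of 0.030.

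Mylk (chromosome 16, 34745210 to 35002420, plus strand) encodes myosin light chain kinase, whose shorter form is made in smooth muscle and whose longer form is made in non-muscle cells, epithelium included. Gene-level FPKM does not separate the forms. The values were 59.8, 53.0 and 58.2 in control, 48.4, 46.6 and 63.8 in TAI mice and 46.0, 34.7 and 19.2 in TAI/IVIg mice. The TAI/IVIg mice lay below both other groups, though mouse 1 missed the lowest TAI mouse only by 46.0 against 46.6. Mylk fell in TAI/IVIg against control, with an estimate of −0.84 (SE 0.277, 95% interval −1.47 to −0.21, limma adjusted p = 0.0346). This call was lost under 10 of 16 alternatives, among them the fits without each control mouse and without TAI/IVIg mouse 3 (−0.50), and the adjusted p over all alternatives ran from 0.0110 to 0.372. With the replicate block the adjusted p was 0.0528.

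Lmod1 (chromosome 1, 135324807 to 135368065, plus strand) encodes leiomodin, which nucleates the actin filaments of smooth muscle. It measured 9.31, 9.72 and 10.2 FPKM in control, 7.81, 6.16 and 12.0 in TAI mice and 4.08, 4.52 and 1.57 in TAI/IVIg mice. Every TAI/IVIg mouse was below every mouse of the other groups, and even TAI/IVIg mouse 1, whose median over the 10 genes was near the control mean, had Lmod1 at 0.419 times that mean. Lmod1 fell by 1.37 on the log2 scale in TAI/IVIg against control (SE 0.307, 95% interval −2.06 to −0.67, limma adjusted p = 0.00709). Without TAI/IVIg mouse 3 the estimate was −1.02, and the call held under all 16 alternatives with adjusted p between 0.00635 and 0.0412.

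Smtn (chromosome 11, 3517523 to 3540612, minus strand) encodes smoothelin, an actin-binding protein found in fully contractile smooth muscle. The values were 14.9, 16.0 and 20.0 FPKM in control, 12.0, 9.69 and 17.3 in TAI mice and 7.88, 7.24 and 3.798 in TAI/IVIg mice. Again the TAI/IVIg mice lay below all 6 others, and mice 1 and 2 of the group stood close together at 0.465 and 0.427 times the control mean. Smtn fell by 1.34 in TAI/IVIg against control (SE 0.272, 95% interval −1.95 to −0.72, limma adjusted p = 0.00463). Without TAI/IVIg mouse 3 the estimate was −1.06, and all 16 alternatives kept the call with adjusted p between 0.00378 and 0.0290. Exons of Gm11946 and Gm11947 cover 16.3% of the exonic bases of Smtn, so part of its reads may be shared with them.

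Cnn1 (chromosome 9, 22099216 to 22109630, plus strand) encodes calponin, which binds actin and slows the myosin ATPase. It measured 34.2, 34.3 and 39.2 FPKM in control, 51.1, 42.2 and 57.0 in TAI mice and 43.8, 27.3 and 8.35 in TAI/IVIg mice. All TAI mice were above all controls, and TAI/IVIg mouse 1 lay among the TAI mice. The estimate was 0.46 for TAI against control (limma adjusted p = 0.463, or 0.0443 with only those 6 mice in the fit) and −0.69 for TAI/IVIg against control (limma adjusted p = 0.244). The latter was −0.05 without TAI/IVIg mouse 3 and, leaving out mouse 1 instead, −1.18 (limma adjusted p = 0.0461).

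Tagln (chromosome 9, 45929619 to 45936058, minus strand) encodes transgelin, an actin-binding protein known as an early and abundant marker of smooth muscle. Here it was the least abundant of the 10 genes, with 1.88, 1.65 and 1.95 FPKM in control, 2.58, 2.10 and 2.56 in TAI mice and 2.27, 1.095 and 0.780 in TAI/IVIg mice. These values rest on 26 to 93 reads per mouse. Of the exonic bases of Tagln, 67.9% lie in exons of Gm48529, which is antisense to it, or of Pcsk7, and how reads in shared bases were assigned is not given in the sources used here. Its level is therefore uncertain. The TAI/IVIg estimate against control was −0.30 (limma adjusted p = 0.277), −0.11 without TAI/IVIg mouse 3 and, leaving out mouse 1 instead, −0.55 (limma adjusted p = 0.0247).

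Des (chromosome 1, 75360329 to 75368579, plus strand) encodes desmin, the intermediate filament of muscle. It measured 61.6, 52.0 and 83.4 FPKM in control, 76.8, 69.3 and 90.9 in TAI mice and 77.9, 42.9 and 23.5 in TAI/IVIg mice, so the TAI mice overlapped the controls. Synpo2 (chromosome 3, 123076519 to 123236149, minus strand) encodes an actin-binding protein of the Z-disc and of dense bodies. Its values were 6.32, 5.05 and 6.80 in control, 7.81, 6.98 and 11.5 in TAI mice and 6.91, 4.29 and 1.97 in TAI/IVIg mice. The TAI mice were above the controls for Synpo2, the lowest by 6.98 against 6.80. In TAI/IVIg against control the estimates were −0.57 for Des (limma adjusted p = 0.225) and −0.49 for Synpo2 (limma adjusted p = 0.239). With TAI/IVIg mouse 3 left out they were −0.15 and −0.12, and with mouse 1 of that group left out they were −0.996 for Des (limma adjusted p = 0.0267) and −0.82 for Synpo2 (limma adjusted p = 0.0505).

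**Figure D1:**
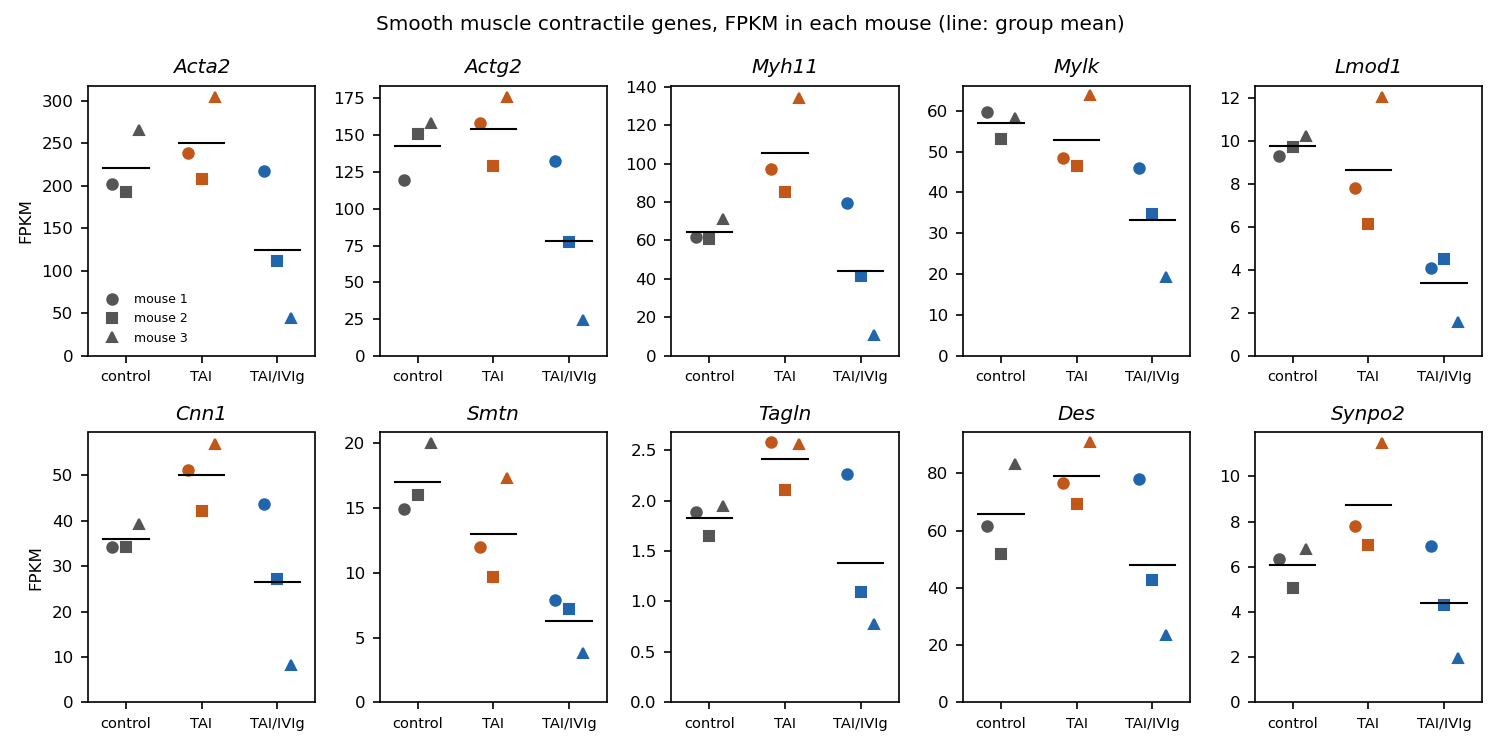
FPKM of the 10 contractile genes in each of the 9 mice, by group, on linear axes that start at 0. Points are mice 1, 2 and 3 of a group and the line is the group mean. TAI/IVIg mouse 3 is the lowest mouse in every panel.

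Per length, the levels in control mice ran from Acta2 (221 ± 39.7 FPKM, SD, n = 3) and Actg2 (143 ± 20.5) through Des (65.7 ± 16.1), Myh11 (64.5 ± 5.89), Mylk (57.0 ± 3.55), Cnn1 (35.9 ± 2.90) and Smtn (17.0 ± 2.68) to Lmod1 (9.75 ± 0.458), Synpo2 (6.06 ± 0.905) and Tagln (1.83 ± 0.155). Neighbours in this order did not overlap between control mice, except that Des, from 52.0 to 83.4, covered the ranges of Myh11 and Mylk. In the TAI mice Myh11 (105 ± 25.6) stood above Mylk (52.9 ± 9.46) with no overlap. In TAI/IVIg mouse 3 this order was turned, with Mylk at 19.2 and Myh11 at 10.99 FPKM.

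TAI against control compared irradiated mice given PBS with untreated mice on day 3, and no member passed the test. Of the 10 estimates 7 were higher in TAI and those of Smtn, Mylk and Lmod1 were lower, from 0.68 for Myh11 to −0.39 for Smtn. The counts were 0 of 10 by limma with adjusted p from 0.290 to 0.875, 0 at an unadjusted p under 0.05 and 0 by voom on the recovered reads, where 34.9% of all 13056 genes were called by limma, 8.81% higher and 26.1% lower. With library medians set equal, the calls over all genes were 2159 higher and 1823 lower, in place of 1150 and 3411. The median estimate of the members was 0.23, beside −0.23 for all genes tested. In 4 members, Myh11, Cnn1, Synpo2 and Tagln, all TAI mice lay above all controls, as they did for 15.1% of genes tested. The estimates of Mylk and Lmod1 turned positive when library medians were set equal, under quantile normalization and with median-ratio library sizes, and that of Actg2 turned negative without control mouse 1.

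TAI/IVIg against control compared irradiated mice that had received IVIg with unirradiated mice. Smtn, Lmod1 and Mylk fell, with group means at 0.372, 0.348 and 0.584 times the control means. These are 3 of 10 members called lower and 0 called higher, beside 37.4% lower and 9.06% higher among all genes tested, so the share of members called lower was no larger than the background. With library medians set equal, 2880 genes were called higher and 1894 lower, in place of 1183 and 4880, and Smtn and Lmod1 were still called. The same 3 genes had no overlap between the groups, where 44.3% of all genes were lower without overlap. All 10 estimates were negative, from −1.37 for Lmod1 to −0.30 for Tagln, but that of Tagln turned positive with library medians set equal and under quantile normalization, and that of Synpo2 under quantile normalization. The median of the members was −0.88 and that of all genes tested −0.39. Without TAI/IVIg mouse 3 the median of the members was −0.32 and Smtn and Lmod1 were called. Without TAI/IVIg mouse 1 it was −1.34 and 9 members were called, all but Synpo2.

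TAI/IVIg against TAI is the comparison of IVIg with vehicle after the same irradiation. No member passed the test, and neither did any of the 13056 genes, so the share called was 0%. All 10 estimates were negative, from −1.60 for Myh11 to −0.57 for Tagln, with limma adjusted p between 0.353 and 0.382. At an unadjusted p under 0.05 all 10 were lower, beside 11.2% of genes tested, and voom on the recovered reads called 0 at the adjusted threshold. The members varied together, with a median pairwise r of 0.927, so these are not 10 separate results. In 5 members, Myh11, Mylk, Lmod1, Smtn and Synpo2, all TAI/IVIg mice lay below all TAI mice, as did 16.1% of all genes. The median was −1.05 for the members and −0.13 for all genes tested, and without TAI/IVIg mouse 3 the median of the members was −0.58. Without that mouse the limma adjusted p was 0.976 for all 10.

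**Figure D2:**
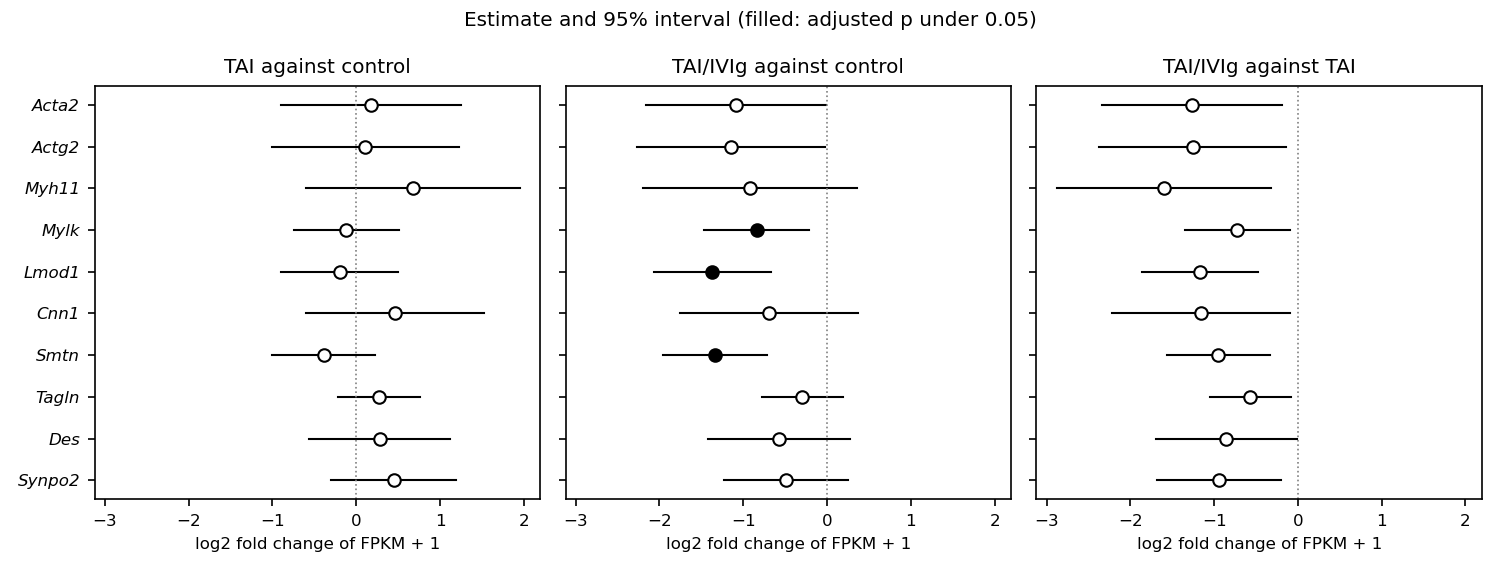
Log2 fold change of FPKM + 1 (x axis) for each member (y axis) in the 3 comparisons, with the 95% interval from limma. Filled points have an adjusted p under 0.05: Mylk, Lmod1 and Smtn in TAI/IVIg against control.

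The levels of the 10 genes were correlated across mice, more so with TAI/IVIg mouse 3 than without it. In TAI/IVIg mouse 3 the members ran from 0.161 times the control mean for Lmod1, 0.170 for Myh11 and 0.173 for Actg2 to 0.337 for Mylk, 0.358 for Des and 0.427 for Tagln. TAI mouse 3 was the highest of its group for 9 members and for the median level, 1.38 times the control mean. Over the 9 mice the pairwise Pearson r of log2(FPKM + 1) between members had a median of 0.927 in 45 pairs, from 0.676 for Tagln and Smtn to 0.995 for Myh11 and Cnn1. Within groups, after subtraction of the group mean, the median was 0.917. All pairs share the same 9 libraries, and TAI/IVIg mouse 3 lies at the low end of each. Without that mouse, a choice made after seeing the data, the median over the 45 pairs was 0.802 in 8 mice, from 0.289 for Cnn1 and Smtn to 0.986 for Myh11 and Cnn1.

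**Figure D3:**
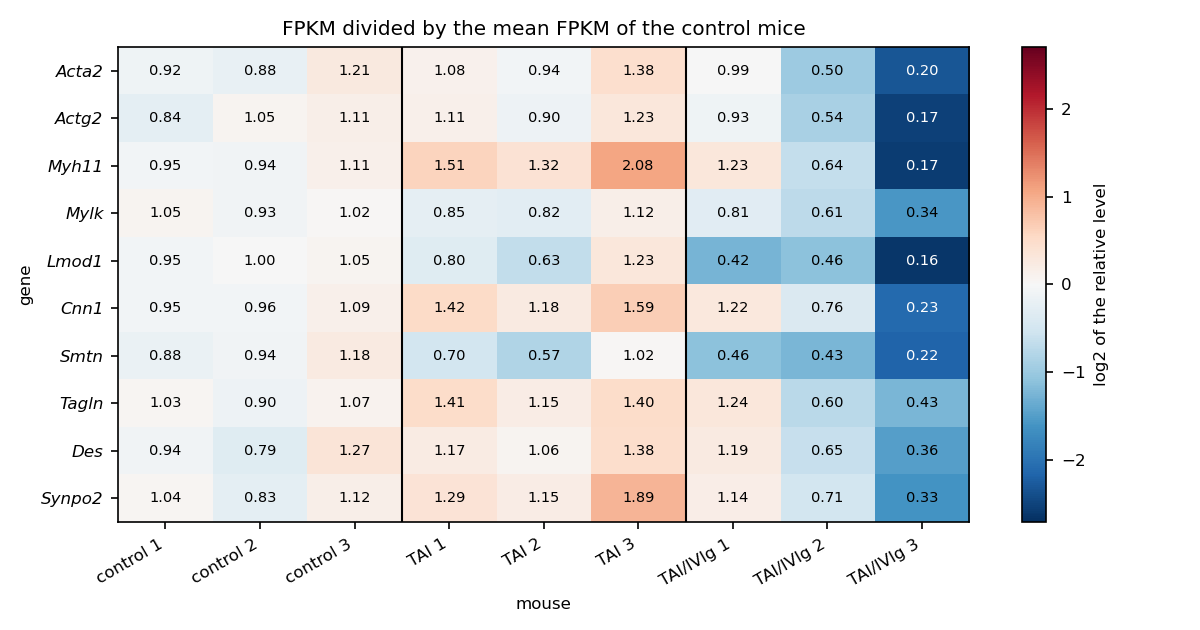
Level of each member (rows) in each mouse (columns) divided by the mean of the 3 control mice, as printed, with colour on a log2 scale. TAI/IVIg mouse 3 runs from 0.161 for Lmod1 to 0.427 for Tagln, and Smtn and Lmod1 are also low in TAI/IVIg mouse 1.

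Relative to Myh11, the levels of Smtn, Lmod1 and Mylk were lower in TAI than in control mice, a comparison chosen after the values were seen and given without a test. The ratio of Smtn to Myh11 FPKM was 0.242 to 0.280 in the controls and 0.114 to 0.129 in the TAI mice, with no overlap. In TAI/IVIg mice 1, 2 and 3 it was 0.0992, 0.174 and 0.346, so the group spanned both others. The ratio of Lmod1 to Myh11 was 0.143 to 0.160 in control, 0.0725 to 0.0897 in TAI mice and 0.0514, 0.109 and 0.143 in TAI/IVIg mice 1 to 3. For Mylk to Myh11 the ranges were 0.816 to 0.971 in control and 0.476 to 0.548 in TAI, against 0.579, 0.834 and 1.75 in the TAI/IVIg mice. Being formed within a library, these ratios do not depend on how libraries are scaled to each other. They do depend on the gene chosen as denominator. Myh11 had the highest estimate of the members in TAI against control, and Smtn, Lmod1 and Mylk had the negative ones. Relative to Acta2 the distances were smaller. Smtn to Acta2 was 0.0736 to 0.0826 in control and 0.0465 to 0.0568 in TAI, without overlap. Lmod1 to Acta2 was 0.0384 to 0.0503 in control and 0.0296 to 0.0395 in TAI, so these groups overlapped. The ratio of Mylk to Acta2 was not part of the comparison.

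**Figure D4:**
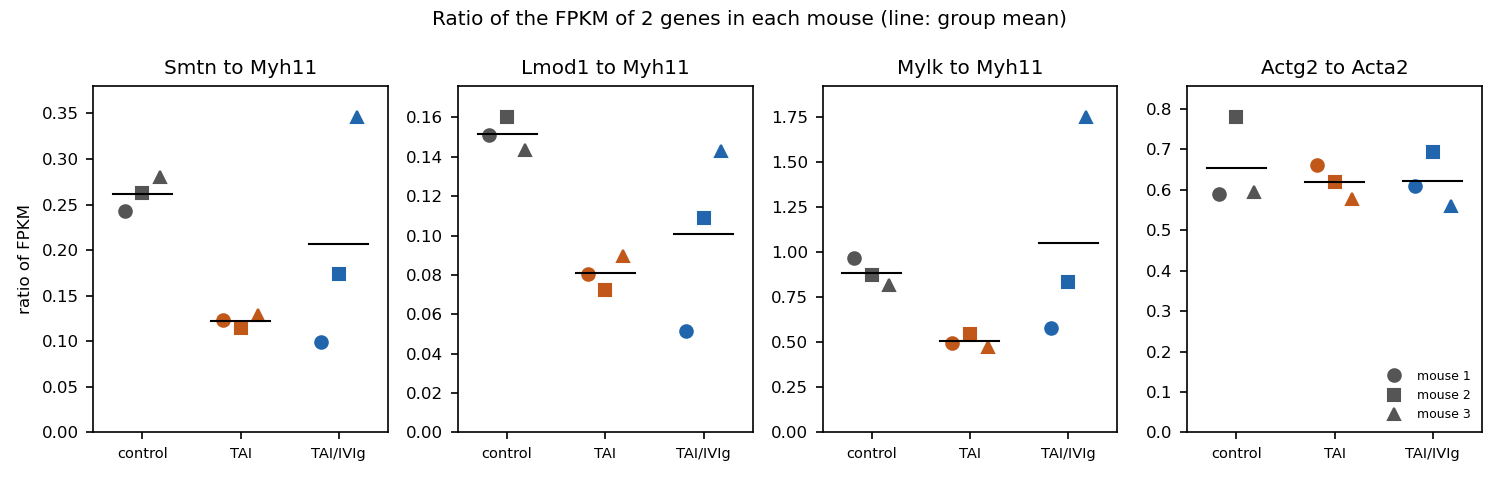
Ratio of the FPKM of a pair of genes in each mouse, by group, on linear axes from 0, with the group mean as a line. The TAI mice lie below the controls for Smtn, Lmod1 and Mylk relative to Myh11, while Actg2 relative to Acta2 overlaps between all groups.

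The genes outside the members whose log2(FPKM + 1) followed the mean of the standardized members most closely over the 9 mice were Mrvi1 (r = 0.993), Tmem47, Csrp1, Nxn, Atp2b4, Sspn, Tpm2, Sema3c, Hspb6 and Aebp1 (r = 0.977). Mrvi1, the substrate of the cGMP kinase at the calcium store, measured 6.48, 6.24 and 7.05 FPKM in control, 7.03, 7.00 and 9.81 in TAI mice and 6.43, 4.16 and 1.39 in TAI/IVIg mice. Csrp1, a LIM protein of the actin cytoskeleton, ran from 114 to 158 in control and 138 to 165 in TAI mice, and was 134, 79.6 and 27.1 in TAI/IVIg. Tpm2, the beta tropomyosin, had 62.7 to 73.1 in control and 77.8, 43.8 and 16.7 in TAI/IVIg. These genes were chosen for their likeness to the members, so their pattern is no separate result. In all, 261 genes outside the members had r of at least 0.9, and the median r of all genes tested was 0.287. Leaving out TAI/IVIg mouse 3, the r of the 10 genes named ran from 0.919 for Sema3c to 0.976 for Mrvi1, 49 genes outside the members reached 0.9, and the median r was 0.0663.

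Other genes of the contractile pathway and of the gut wall were read from 16 lists of 238 genes, of which 182 were tested. In TAI against control 29 of these were called (15.9%, beside 34.9% of all genes), 18 higher and 11 lower. Between TAI/IVIg and control 43 were called (23.6%), 10 higher (5.49%, beside 9.06% of all genes) and 33 lower (18.1%, beside 37.4%). The directions depended on scaling. After library medians were set equal, 44 of the listed genes were called higher and 4 lower in TAI mice, and 24 higher and 5 lower in TAI/IVIg mice. Between TAI/IVIg and TAI the count was 0 by limma and by voom at the adjusted threshold. Among 21 partners of the thin filament and myosin, 1 rose and 2 fell in TAI against control and 3 fell in TAI/IVIg against control, with medians of 0.17 and −0.39. Under each of the 3 other scalings run (equal library medians, quantile normalization, median-ratio library sizes), 3 partners were called higher in TAI mice and 1 in TAI/IVIg mice, and 0 lower. Lpp, a LIM protein of focal adhesions, rose in TAI from 4.50 ± 0.175 to 6.97 ± 0.166 FPKM (log2 0.53, limma adjusted p = 0.0119), a call lost only without TAI mouse 1. Ldb3, a Z-disc protein, fell in TAI from 25.0 ± 3.93 to 15.3 ± 0.695 FPKM (adjusted p = 0.0132), a call lost under 5 of 16 alternatives, with library medians set equal among them and without control mouse 2 or TAI mouse 1. In TAI/IVIg mice 1 to 3 Ldb3 was at 17.2, 19.7 and 23.7 FPKM. It was thus highest in mouse 3, where the contractile genes were lowest, and which cells made it was not tested. Cnn2, a calponin that is not confined to smooth muscle, fell in TAI/IVIg (log2 −1.32, adjusted p = 0.0435), where control mouse 3 was at 31.6 and the other controls at 11.3 and 10.1 FPKM. Without control mouse 3 its estimate was −0.83 and it was not called.

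Among 17 genes tested for filament and membrane anchorage, 2 rose in TAI and 3 fell in TAI/IVIg against control. Equal library medians gave 4 higher in TAI mice, and for TAI/IVIg mice 2 higher and 0 lower. Sgcb, a sarcoglycan of the membrane complex, fell in TAI/IVIg from 4.35 ± 0.582 to 2.14 ± 1.03 FPKM (log2 −0.81, adjusted p = 0.0167), a call lost under 4 of 15 alternatives, without control mouse 3 among them.

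Genes that set myosin phosphorylation numbered 17 tested, with 0 higher and 2 lower in TAI and 0 higher and 5 lower in TAI/IVIg against control. Equal library medians gave 3 higher and 1 lower in TAI mice, and for TAI/IVIg mice 2 higher and 0 lower. Quantile normalization gave 4 and 1 in TAI mice and 2 and 2 in TAI/IVIg mice. Pde5a, the phosphodiesterase that degrades cGMP, fell in TAI with values of 21.4, 20.9 and 18.5 FPKM in control and 10.8, 9.83 and 12.6 in TAI (log2 −0.82, limma adjusted p = 0.00252), and kept the call under all 16 alternatives. In the TAI/IVIg mice Pde5a was at 10.4, 10.99 and 9.39, so mouse 3 was not set apart there. Ppp1r14a, an inhibitor of myosin phosphatase, had 10.7, 7.53 and 15.8 FPKM in control and 7.77, 3.87 and 2.40 in TAI/IVIg (log2 −1.18, adjusted p = 0.0380). These groups overlapped and the call was lost under 10 of 16 alternatives, without control mouse 1 or 3 or TAI/IVIg mouse 2 or 3 among them.

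Of 15 calcium and ion channel genes tested, 1 fell in TAI and 4 in TAI/IVIg against control. These counts became 5 higher and 1 lower in TAI mice with equal library medians, and 1 and 1 in TAI/IVIg mice. Atp2a2, the calcium pump of the sarcoplasmic and endoplasmic reticulum, fell in both: it was at 90.9, 103.6 and 94.3 FPKM in control, 51.6, 53.6 and 46.6 in TAI mice and 40.6, 38.2 and 27.1 in TAI/IVIg mice. The groups did not overlap, and the estimates against control were −0.91 in TAI (limma adjusted p = 0.00415) and −1.44 in TAI/IVIg (limma adjusted p = 0.000471), held under all 16 alternatives each. Atp2a2 is also made in non-muscle cells. Of 10 receptor genes tested, 1 was higher and 1 lower in TAI by limma, and 3 higher and 0 lower with library medians set equal. In TAI/IVIg the counts were 0 higher and 1 lower, and 2 and 0. Hrh1, a histamine receptor, averaged 0.565 FPKM in control and 1.42 in TAI. All its controls were under the filter of 1 FPKM, which it passed through the irradiated mice, and the call (adjusted p = 0.0442) was lost with no filter, under quantile normalization, with the replicate block and without any 1 of the 6 mice. P2ry1, an ADP receptor, fell in TAI (7.95 to 5.05 FPKM, adjusted p = 0.0356) and in TAI/IVIg (4.94 FPKM, adjusted p = 0.0205). The P2ry1 call was lost with library medians set equal in both comparisons, in TAI in 5 of 6 fits without a mouse (all but control mouse 3), and in TAI/IVIg without control mouse 2 or TAI/IVIg mouse 1.

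Of 17 transcription factors tested, 4 rose in TAI, and 3 rose and 2 fell in TAI/IVIg against control. With library medians set equal, 7 and 4 were higher and 0 lower. Gata6, a factor of smooth muscle and of proximal intestinal epithelium, rose from 8.05, 6.77 and 6.08 FPKM in control to 15.4, 12.8 and 17.8 in TAI and 16.7, 16.0 and 16.1 in TAI/IVIg (log2 1.03 and 1.12, limma adjusted p = 0.00182 and 0.000844), under all 16 alternatives in each comparison. Hopx, which is also made in epithelium, fell in TAI/IVIg (log2 −1.11, adjusted p = 0.0203), a call lost under 8 of 16 alternatives, without control mouse 2 or 3 or TAI/IVIg mouse 1 or 3 among them. Srf, serum response factor, measured 16.7 ± 1.97 in control, 13.5 ± 2.14 in TAI mice and 11.9 ± 0.258 in TAI/IVIg mice. It fell in TAI/IVIg against control (log2 −0.44, adjusted p = 0.0324), but the estimate was 0.05 with library medians set equal and 0.00395 with median-ratio library sizes, and 5 of 6 fits without a mouse lost the call, all but that without control mouse 1. Myocd, the cofactor of serum response factor in muscle, was below the filter and was not tested. Its FPKM was 0.251, 0.255 and 0.441 in control, 0.545, 0.459 and 0.606 in TAI mice and 0.225, 0.165 and 0.0650 in TAI/IVIg mice, on 7 to 71 reads per mouse. The TAI mice were above the controls and the TAI/IVIg mice below them, but only by 0.459 against 0.441 and by 0.225 against 0.251 FPKM. In reads, TAI mouse 2 had 48 and control mouse 3 had 49, and TAI/IVIg mouse 1 had 26 and control mouse 1 had 28. Among genes tested, 15.1% were higher without overlap in TAI and 44.3% lower without overlap in TAI/IVIg against control.

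Of 8 actin and myosin genes tested that are not confined to muscle, 0 were higher and 3 lower in TAI/IVIg against control, and 2 higher and 0 lower with library medians set equal. Actb, the beta actin of all cells, measured 1852 ± 334, 2015 ± 366 and 2002 ± 253 FPKM in control, TAI and TAI/IVIg and was not called in any comparison, with 2079 in TAI/IVIg mouse 3; the sign of its small estimates changed with scaling. Actg1, the gamma actin of all cells, was at 560.3 ± 22.5, 487 ± 76.0 and 381 ± 89.1 and fell in TAI/IVIg against control (log2 −0.58, limma adjusted p = 0.0391). That call was lost under 9 of 16 alternatives, 5 of them fits without a mouse, and held without TAI/IVIg mouse 1. Tpm4 likewise fell (log2 −0.70, adjusted p = 0.0363), lost under 9 of 16 alternatives, without control mouse 2 or 3 or TAI/IVIg mouse 3 among them. None of the 8 genes tested in this list was called in TAI against control by limma, and 2 were lower at an unadjusted p under 0.05.

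Acta1, the actin of skeletal muscle, was low in control at 0.375, 0.958 and 0.376 FPKM and reached 4.64, 2.44 and 15.1 in TAI and 6.19, 3.18 and 2.68 in TAI/IVIg. Every irradiated mouse was above every control, on 10 to 26 reads in the controls and 61 to 422 in the irradiated mice. All controls were under the filter of 1 FPKM, which Acta1 passed only through the irradiated mice, so its tests are not independent of the filter. With that limit, the estimate was 2.13 in TAI (limma adjusted p = 0.0128), called also with no filter and under the other 14 alternatives run. For TAI/IVIg against control it was 1.63 (limma adjusted p = 0.0271), not called with no filter or without control mouse 1 or 3 or TAI/IVIg mouse 1. Of the 11 skeletal and cardiac muscle genes in the table only 3 passed the filter, and Actc1, Myh2, Myh6, Myh7 and Mb were each at 0 in at least 1 mouse.

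Markers of several other cells of the gut wall were also low in TAI/IVIg mouse 3. Relative to the control mean, the median of the genes tested in that mouse was 0.289 for interstitial cells of Cajal (7 genes), 0.340 for enteric neurons and glia (11), 0.362 for fibroblasts (12), 0.461 for pericytes and vascular muscle (8) and 0.524 for endothelium (11). For leukocytes (10) it was 0.474, for mesothelium (5) 0.890 and for epithelium (13 genes) 1.04. In TAI/IVIg mouse 1 the medians were 0.890 for Cajal cells, 1.56 for neurons and glia, 0.754 for fibroblasts, 1.60 for pericytes and 0.831 for endothelium. They were 0.378 for leukocytes, 0.771 for mesothelium and 0.826 for epithelium. In TAI/IVIg mouse 2 the medians were, in the same order, 0.666, 0.931, 0.590, 0.859, 0.941, 0.655, 0.276 and 0.892. The summed FPKM of the Cajal cell markers was 15.9 to 23.4 in control, 24.3 to 32.7 in TAI mice and 5.80 to 18.1 in TAI/IVIg mice. For neurons and glia the sums were 23.6 to 29.1, 36.8 to 54.2 and 13.8 to 41.4, and for fibroblasts 126 to 186, 224 to 280.4 and 128 to 216. Fbln1, which was 5.70 to 12.3 FPKM in control, made up 79.96 of the 128 in TAI/IVIg mouse 3. The fibroblast sums therefore do not show the level of the other genes of that list. The pericyte list summed to 90.0 to 97.6, 145 to 177 and 41.0 to 148, and the endothelial list to 37.8 to 51.9, 36.2 to 49.3 and 18.6 to 29.1. The leukocyte list summed to 65.1, 28.4 and 270 FPKM in control mice 1 to 3, so control mouse 3 held most of the control sum. Its sums were 23.9 to 63.5 in TAI mice and 16.8, 71.1 and 16.3 in TAI/IVIg mice 1 to 3. The leukocyte medians relative to the control mean therefore show no loss that all controls share. Among the markers of these lists, Higd1b and Pi16 were at 0 in at least 1 mouse. Their part in the differences of the contractile genes was not tested.

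**Figure D5:**
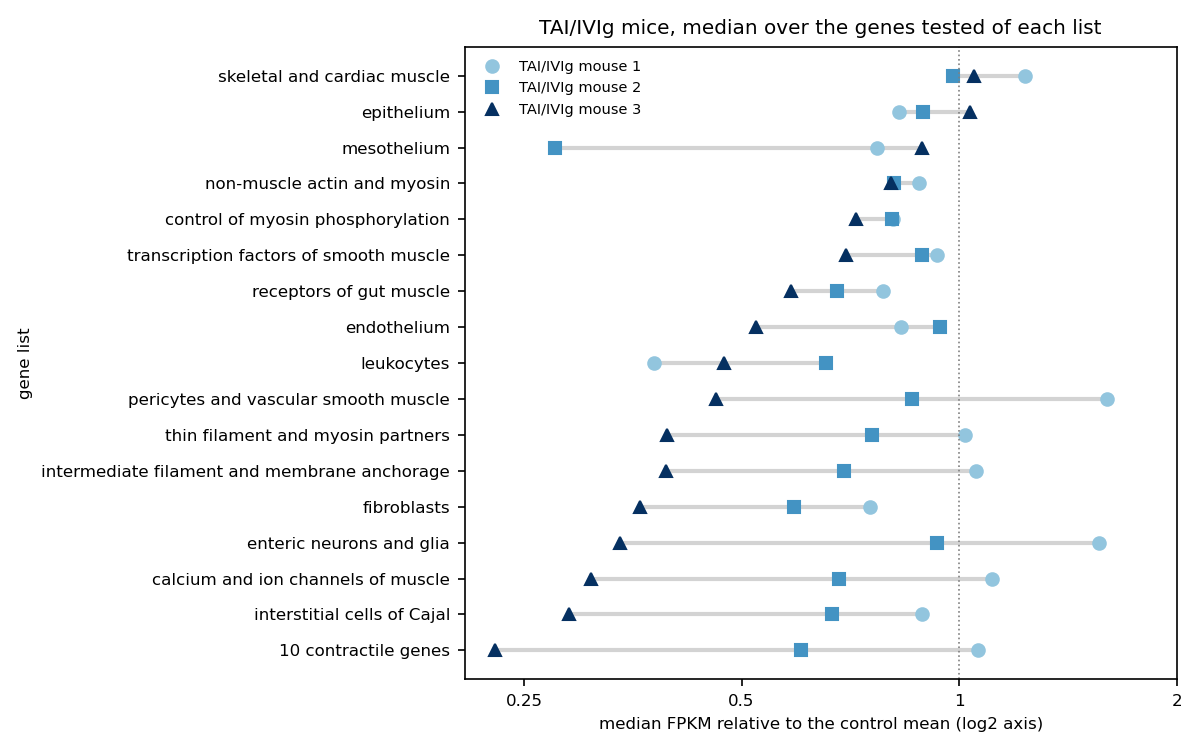
Median level of the genes tested in each list, relative to the control mean (x axis, log2 scale), in each of the 3 TAI/IVIg mice. Mouse 3 is at 0.228 for the 10 contractile genes and at 1.04 for epithelium.

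Single genes of those lists moved in different directions. Ano1, the chloride channel of interstitial cells of Cajal, rose in TAI from 1.66 ± 0.218 to 3.61 ± 0.229 FPKM (limma adjusted p = 0.0382), a call lost without any 1 of the 6 mice, and it was at 0.519 in TAI/IVIg mouse 3. Ret, the receptor of enteric neurons, rose from 1.12, 1.06 and 1.32 FPKM in control to 7.92, 5.00 and 7.99 in TAI and 5.96, 4.45 and 6.17 in TAI/IVIg (limma adjusted p = 0.000552 and 0.000615). Ret thus stayed high in TAI/IVIg mouse 3. Fbln1, a matrix glycoprotein, rose from 8.73 ± 3.31 FPKM in control to 55.3 ± 5.18 in TAI and 68.9 ± 10.9 in TAI/IVIg (limma adjusted p = 0.000360 and 0.000153), with 79.96 in TAI/IVIg mouse 3. Dcn, a fibroblast proteoglycan, fell in TAI/IVIg against control (22.7 ± 5.98 to 9.12 ± 3.98 FPKM, adjusted p = 0.0113). The calls of Ret, Fbln1 and Dcn held under every alternative run.

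Of the vessel genes, Mcam, an adhesion molecule of pericytes and endothelium, rose in TAI from 8.79 ± 1.88 to 17.1 ± 0.272 FPKM (limma adjusted p = 0.0204), a call lost in 5 of 6 fits without a mouse, all but that without control mouse 2. Esam, of endothelial junctions, rose in TAI from 3.61 ± 0.553 to 6.35 ± 1.18 FPKM (adjusted p = 0.0172), lost without control mouse 3 or TAI mouse 1 or 2. Lyve1, of lymphatic endothelium and some macrophages, fell from 16.6 ± 6.23 to 5.49 ± 0.695 in TAI and 2.67 ± 0.744 in TAI/IVIg (limma adjusted p = 0.00531 and 0.000553, under all 16 alternatives). In the epithelial list 2 genes rose and 3 fell in TAI, and 4 rose and 3 fell in TAI/IVIg against control; with equal library medians these were 2 and 0, and 4 and 1. Elf3 rose in TAI (122 to 236 FPKM, adjusted p = 0.0128) and Cldn7 in TAI/IVIg (318 to 599 FPKM, adjusted p = 0.00379). Cdx1 fell in TAI (59.6 to 36.4 FPKM, adjusted p = 0.0122, not called with library medians set equal) and Krt18 in TAI/IVIg (166 to 48.4 FPKM, adjusted p = 0.00455). Krt19, placed in the mesothelial list but also a keratin of the epithelium, made up most of that list's sum and fell from 729 to 211 and 119 FPKM (adjusted p = 0.0170 and 0.00245), the former not called without control mouse 2 or 3 or TAI mouse 3. Of the leukocyte genes, S100a9 went from 0.515 to 2.99 FPKM in TAI (limma adjusted p = 0.0156). It passed the filter mainly through the irradiated mice, and was called also with no filter but not without control mouse 2. Ly6g, listed as a leukocyte gene, passed the filter only outside the TAI/IVIg group, so its test is not independent of the filter. It was lower in TAI/IVIg than in control (6.88 to 0.266 FPKM, limma adjusted p = 0.0167), with controls at 13.2, 1.20 and 6.25 FPKM. The Ly6g call was lost with library medians set equal and without control mouse 3 or TAI/IVIg mouse 3. Control mouse 1 had 216 reads of Ly6g and 2 of S100a9, and which cells made Ly6g was not tested.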

How the data were processed

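Jejunal RNA-seq of 9 mice in 3 groups of 3 was analysed. The authors deposited 1 table of FPKM values for 31685 genes, 31146 of them with a symbol. The submitters' processing notes name FastQC, Trimmomatic, STAR, featureCounts and DESeq2 with mm10 and GRCm38, without versions. The strand setting of the counting is not given in the sources used here. The deposited FPKM values correspond to whole reads within 0.01 for 31682 genes (99.99%), with the GENCODE M21 union exon length for 96.6% of genes, so read numbers and library totals were recovered from them.

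The 13056 genes that reached an FPKM of 1 in 3 or more mice were tested on log2(FPKM + 1) with limma 3.58.1 in R 4.3.3, with 1 term per group, all 9 mice and a trended variance. P-values were adjusted by Benjamini-Hochberg over all genes tested, and adjusted p under 0.05 was called. Fold changes on this scale understate those of low genes. The ratio of Actg2 to Acta2 was compared by an exact permutation test. On the recovered reads, voom called 4472, 6101 and 0 genes in TAI against control, TAI/IVIg against control and TAI/IVIg against TAI. The scripts were tested on simulated data. Alternatives were a pseudocount of 0.1, other filters, other scalings, the 6 mice compared alone, no variance trend, a replicate block, voom on the recovered reads and leaving out each mouse.

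The members and lists were chosen with earlier results of these data known. Named were all members, Actb, Actg1, Srf and Myocd, the gene with the largest called rise and fall of each list in each comparison with control, and the 10 genes closest to the members' mean. Of the genes this rule names, 2 are not reported here. The ratios to Myh11 and Acta2 other than that of Actg2 were added after their values were seen. The correlations without TAI/IVIg mouse 3 were likewise chosen after seeing the data. Deviations of control and TAI mice with the same number correlated at 0.241 to 0.308, and those with different numbers at −0.336 to 0.146. Between control and TAI/IVIg, mice with different numbers reached 0.408, so these correlations do not establish a pairing. The main fit had no term for it. The replicate block, run as an alternative, changed no member's call between control and TAI.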

Additional observations from a re-analysis of the deposited data

How the results depend on the processing

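Of the members called in TAI/IVIg against control, Smtn and Lmod1 were called under all 16 alternatives, and Mylk under 6. With only the 6 mice compared, 2 members (Myh11 and Cnn1) were called in TAI against control. The members' median there was 0.51 with library medians set equal and 0.53 with voom and median-ratio library sizes. Among the lists, 48 genes were called in TAI against control with library medians set equal, 45 under quantile normalization and 50 with only the 6 mice. In TAI/IVIg against control, 25 were called with no filter, 27 under quantile normalization and 24 with voom and median-ratio library sizes, and of all genes 3381 with a mean FPKM of at least 5. In TAI/IVIg against TAI, 4 genes of the whole table were called with no filter and 3 with the replicate block.

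Setting library medians equal moved the median of all genes from −0.23 to 0.05 in TAI against control and from −0.39 to 0.10 in TAI/IVIg against control. The calls then went from 1150 higher and 3411 lower to 2159 and 1823, and from 1183 and 4880 to 2880 and 1894. In TAI against control, signs changed for Mylk (0.171 with medians equal, 0.103 under quantile normalization, 0.176 with voom and median-ratio sizes), Lmod1 (0.0892, 0.0792 and 0.0784), Actg1 (0.0749 with medians equal, 0.0839 with voom and median-ratio sizes) and Actb (−0.236 under quantile normalization). In TAI/IVIg against control they changed for Tagln (0.195 with medians equal, 0.126 under quantile normalization), Synpo2 (0.00702 under quantile normalization), Actb (−0.404 under quantile normalization) and Srf (0.0466 with medians equal, 0.00395 with voom and median-ratio sizes). In TAI/IVIg against TAI they changed, with medians equal and with voom and median-ratio sizes, for Actb (0.202 and 0.184) and Srf (0.0530 and 0.0179), and the actin ratio was 0.00741 with a pseudocount of 1. The cause was not tested.

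Without 1 mouse, the genes called in TAI against control ran from 2343 (without TAI mouse 1) to 4458, and those of the lists from 13 (without TAI mouse 1) to 22, with 19 and 18 without control mouse 2 or 3. In TAI/IVIg against control the members called ran from 2 to 9 and the genes of the lists from 24 (without control mouse 3) to 56 (without TAI/IVIg mouse 1), with 25 without TAI/IVIg mouse 3. Fits without 1 mouse gave −0.0128 to 0.231 for Actg2 and −0.0362 to 0.243 for Actb in TAI against control, and for Actb −0.0380 to 0.227 in TAI/IVIg against control and −0.121 to 0.135 in TAI/IVIg against TAI. The log2 difference of the actin ratio ran from −0.138 to 0.0622, −0.154 to 0.0616 and −0.0845 to 0.0716 in the 3 comparisons.

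The replicate block left Smtn and Lmod1 called in TAI/IVIg against control and gave Mylk an adjusted p of 0.0528. Deviations of same-numbered mice correlated at −0.296 to 0.201 between TAI/IVIg and the other groups, so the numbers gave no sign of pairing there. Groups of 3 leave little power, Tagln and Myocd rest on few reads, and 1 TAI/IVIg mouse sets most of the members' spread.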
